A study of Mus musculus with 25 samples.

Results

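Metallothioneins are small, cysteine-rich proteins of the cytosol that bind zinc and copper and buffer free metal and oxidants. Mt1, Mt2 and Mt3, 3 of the 22439 gene rows in the count matrices, were chosen by measured values: their CPM (a gene's share of all UMIs of the same cells, scaled to a fixed total) in each library by cell type and time point, and by cluster. These levels are therefore described without a test, and tests are given only for the sort of the cells and for other genes. Mt1 and Mt2 are the inducible members. Their promoters carry metal response elements, which the zinc sensor MTF1 (gene Mtf1) binds when zinc rises, and both also respond to glucocorticoids, to interleukin-6 through STAT3 and to oxidants. In the central nervous system Mt1 and Mt2 are known mainly from reactive astrocytes and activated myeloid cells, and Mt3 from neurons and astrocytes.

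The data were droplet 3′ UMI counts of 30958 myeloid cells sorted from mouse spinal cord in 25 libraries. The libraries came from animals with laminectomy alone, an opening of the bone over the cord (Ctrl, 2 libraries), or from the lesion after spinal cord injury. Injured libraries were taken 1 day (D1, 5 libraries), 2 days (D2, 4 libraries), 3 days (D3, 7 libraries), 10 days (D10, 5 libraries) or 21 days (D21, 2 libraries) after it. Per the labels, 12 libraries, called mixed, held YFP+ cells of Cx3cr1CreERT2 mice, which carry an inducible Cre recombinase at the fractalkine receptor locus. The other strain, Cx3cr1CreERT2:R26tdTomato, adds a red reporter that Cre switches on: 5 resident libraries held its RFP+/YFP+ cells, 7 infiltrating libraries its RFP-/YFP+ cells, and 1 library at D3 (D3_conflict 1) had labels that disagree on the sort, so it entered no comparison over time or by sort, while levels over all libraries include it. All groups, controls included, thus carry Cx3cr1CreERT2, the sort cannot be told apart from the strain, animal ages are not given in the sources used here, and tissue of 1 to 3 mice was pooled in each library, so p-values measure the spread between libraries.

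Names for the authors' numbered cell types come from lists of markers. The levels behind a name are given here for microglia and macrophages only. All 9 microglia markers had counts in each of the 17 microglia sums, with a summed level of 4657 to 27783 CPM, against 305 to 4441 CPM in the 15 macrophage sums. The macrophage list, which includes Apoe and Lyz2, summed to 17237 to 152934 CPM in macrophages, a class that takes in monocytes, and to 1715 to 74009 CPM in microglia. Sums entered the comparisons over time when they held at least 20 cells: microglia of the resident and mixed libraries (23 to 1500 cells, 135097 to 7794902 UMIs) and macrophages of the infiltrating and mixed libraries (28 to 3019 cells, 235999 to 22068469 UMIs). Doublets were not called, and no correction was made for free RNA. 127 cell barcodes occurred in more than 1 library (254 cells). The lists moved with time in the microglia sums. The microglia list summed to 24728 and 27783 CPM in controls, 4657 (D1_mixed 3) to 8219 at D1, 6071 to 11772 at D2, 9308 to 12936 at D3 and 13233 to 15588 at D10. The macrophage list summed to 1898 to 2007 CPM in controls, 1742 to 2210 at D1, 1715 to 4404 at D2, 12175 to 25975 at D3 and 55038 to 64627 at D10. At D1 it was thus near its control level, and the part of these shifts in the results over time was not tested. The library D1_mixed 3 stands apart from the other D1 libraries in Mt1 and Mt2, and the main values that rest on it are given with and without it.

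The members lie side by side on the plus strand of mouse chromosome 8 (GRCm38, GENCODE M21), in the order Mt4, Mt3, Mt2, Mt1. Mt3 spans 94152607 to 94154146, Mt2 spans 94172664 to 94173568 and Mt1 spans 94179082 to 94180327, with 18517 bases between Mt3 and Mt2 and 5513 between Mt2 and Mt1. The 250 bases before each RefSeq gene start (GRCm38.p6) are shown because of how the members moved across libraries. Mt1 and Mt2 moved together, and Mt3, at low counts, followed them less closely. Capitals mark the core of the metal response element, TGCACNC or TGCGCNC, on either strand.
Mt1, chr8:94178839-94179088, plus strand: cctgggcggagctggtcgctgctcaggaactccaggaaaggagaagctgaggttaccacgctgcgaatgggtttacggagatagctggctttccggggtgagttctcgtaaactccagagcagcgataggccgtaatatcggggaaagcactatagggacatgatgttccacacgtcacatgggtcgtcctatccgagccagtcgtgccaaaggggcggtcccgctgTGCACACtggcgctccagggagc
Mt2, chr8:94172368-94172617, plus strand: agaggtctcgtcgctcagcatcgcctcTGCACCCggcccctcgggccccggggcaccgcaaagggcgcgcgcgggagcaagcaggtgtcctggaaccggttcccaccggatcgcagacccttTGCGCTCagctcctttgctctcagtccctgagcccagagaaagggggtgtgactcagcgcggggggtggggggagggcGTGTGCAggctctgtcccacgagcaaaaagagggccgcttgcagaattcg
Mt3, chr8:94152357-94152606, plus strand: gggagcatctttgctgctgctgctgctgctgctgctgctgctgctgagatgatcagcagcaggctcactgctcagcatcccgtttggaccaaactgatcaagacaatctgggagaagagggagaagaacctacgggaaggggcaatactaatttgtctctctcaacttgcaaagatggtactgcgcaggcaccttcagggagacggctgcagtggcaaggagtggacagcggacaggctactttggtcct
The Mt2 stretch held 3 cores, the Mt1 stretch 1 and the Mt3 stretch 0. Over the full 300 bases of the RefSeq table, which add 50 bases after the start, Mt2 had 4 cores, Mt1 3 and Mt3 1. Of all 32851 promoters of that length, 12.6% held TGCACNC, 15.4% held TGCGCNC, 25.7% held at least 1 of them and 2.0% held 3 or more. Within these 300 bases the core of the antioxidant response element, TGACNNNGC on either strand, occurred only in Mt2. It lay there once, as TGACTCAGC at 79 bases before the start, and overlapped no metal response core. Of all promoters 12.4% held this core. No count of it is given for bases further downstream, so its absence from Mt1 and Mt3 holds for this stretch only.

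The first 180 bases of transcript 201 of each gene held 10 cores in all, of which 2 of Mt1 and 1 of Mt3 are also among those of the 300-base promoters. They are shown with 6 bases on each side because annotated starts of these genes differ: another Mt1 transcript begins downstream of these sites, and 3′ reads do not show which start was used.
Mt1-201, bases 10 to 16: gagctcTGCACTCcgcccg
Mt1-201, bases 28 to 34: gaaaagTGCGCTCggctct
Mt1-201, bases 92 to 98: cctgctGGGTGCAaaccct
Mt1-201, bases 106 to 112: acccttTGCGCCCggactc
Mt2-201, bases 13 to 19: aagggcGTGTGCAggcggc
Mt2-201, bases 32 to 38: gggggcGCGTGCAtggtgc
Mt2-201, bases 66 to 72: agctttTGCGCTCgaccca
Mt3-201, bases 28 to 34: cagcagTGCACACacacgg
Mt3-201, bases 55 to 61: cgctgtGCGTGCAtagggg
Mt3-201, bases 87 to 93: gctgctTGCGCGCccccgc
Mt1-201 held 4 cores there, a number reached by 0.0801% of 58664 protein-coding transcripts. Mt2-201 and Mt3-201 held 3 each, a number reached by 0.506%, while 17.6% held at least 1. Mt3-201 held as many cores in this stretch as Mt2-201, and whether any of the cores is used was not tested. Places before or after a start refer to the annotated start only.

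Mt1 gave nearly all metallothionein RNA in these cells. Over all libraries it had 101098 UMIs, 93.2% of those of the 3 members, and was seen in 60.9% of cells. Mt2 had 5548 UMIs (5.11%) in 7.92% of cells, and Mt3 had 1869 UMIs (1.72%) in 4.59% of cells. Without D1_mixed 3 the shares of UMIs were 94.9%, 3.09% and 2.02%. Mt4, the neighbouring gene, which is known from stratified epithelia, had 0 UMIs. UMI counts mark captured 3′ ends, so no length scaling was applied between genes. How reads that match both Mt1 and Mt2, which are close in sequence, were counted is not given in the sources used here.

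In microglia, Mt1 was lowest after laminectomy and highest at D1. The control libraries held 133 CPM (Ctrl_mixed 1) and 166 CPM (Ctrl_resident 1). The D1 libraries held 776, 706 and 3124 CPM (D1_mixed 1, 2 and 3). At D2 the values were 487 CPM in D2_resident 1, 575 in D2_mixed 1 and 266 in D2_mixed 2, the last of which has 23 cells. At D3 the resident libraries held 445 and 607 CPM and the mixed libraries 855, 1003 and 610 CPM. At D10 the values were 503 CPM in the resident library and 482 and 414 in the mixed libraries, and the D21 library held 401 CPM. All 15 injured libraries lay above both controls. The D1 microglia come from mixed libraries of male mice, whereas Ctrl_mixed 1 is labelled female and Ctrl_resident 1 male. The mean was 149 ± 22.9 CPM in controls (SD, n = 2), 1536 ± 1376 at D1 (n = 3), 443 ± 159 at D2 (n = 3), 704 ± 222 at D3 (n = 5) and 466 ± 46.6 at D10 (n = 3). The ratio of mean Mt1 CPM to controls was 10.3 at D1, then 2.96 at D2 and 4.71 at D3, and it was 3.12 and 2.68 for D10 and D21. Without D1_mixed 3 the D1 mean was 741 ± 49.5 CPM (n = 2), 4.96 times the controls. The ranges of D2, D3 and D10 overlapped, those of D1_mixed 1 and 2 lay inside that of D3, and the single D21 library lay inside the range of D2, so no order among these times is read.

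The deposited cell table names 7 sequencing pools, which split the time points. In 1 pool Mt1 was 133 CPM in Ctrl_mixed 1 against 482 and 414 CPM in the D10 mixed libraries, a ratio of 3.37. In another it was 166 CPM in Ctrl_resident 1 against 487 CPM in D2_resident 1 and 503 CPM in D10_resident 1, ratios of 2.93 and 3.03. D1_mixed 1 to 3 shared a pool with D21_mixed 1, so the difference between 3124 and 706 or 776 CPM lay within 1 pool. No pool of microglia holds controls with D1 or D3 libraries. For D1 pool and injury cannot be told apart, while D3 is linked to controls through D2 libraries, which share 1 pool with Ctrl_resident 1 and 1 with D3_mixed 3.

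Mt2 in microglia started from a much lower base than Mt1, and the ratio of its mean to controls was the larger of the pair at D1, D2 and D3 but not at D10 and D21. Controls held 2.50 and 8.63 CPM, from 14 and 16 UMIs. The D1 libraries held 77, 62.1 and 557 CPM, the D2 libraries 39.3, 62.7 and 66.6 CPM, and the D3 libraries 35.7 to 97.9 CPM with a median of 45.7. By D10 the values were 23.1, 13.5 and 12.8 CPM, and the D21 library held 9.80 CPM, next to Ctrl_resident 1. Every D1, D2, D3 and D10 library lay above both controls. Mean Mt2 was 5.57 ± 4.33 CPM in controls (SD, n = 2), 232 ± 281 at D1 (n = 3; 69.6 ± 10.5 without D1_mixed 3), 56.2 ± 14.8 at D2 (n = 3), 56.6 ± 26 at D3 (n = 5) and 16.5 ± 5.72 at D10 (n = 3). The ratio to controls was 41.7 at D1 (12.5 without D1_mixed 3), 10.1 and 10.2 for D2 and D3, and 2.96 and 1.76 for D10 and D21. The order of the pair at D10 depended on the control library. In the pool of Ctrl_mixed 1, D10 over control was 5.26 for Mt2 and 3.37 for Mt1. In the pool of Ctrl_resident 1 it was 2.68 for Mt2 and 3.03 for Mt1. The Mt2 level of D1_mixed 1 and 2 was thus close to that of D2 and D3, whereas all 3 times lay above D10 without overlap.

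Mt3 in microglia was low and uneven. Controls held 6.25 and 5.39 CPM. At D1 the libraries held 37.8 and 30.2 CPM (D1_mixed 1 and 2) and 11.6 CPM in D1_mixed 3, the library with the highest Mt1 and Mt2. D2 values were 20.8, 23.6 and 0 CPM, the last with a limit of 22.2 CPM at 3 counts in 23 cells. D3 values ran from 0 (D3_mixed 1) over a median of 3.97 to 40.4 CPM (D3_resident 2), so they spanned the range of all other times. D10 values were 14.6, 10.0 and 16.3 CPM and D21 was 10.0 CPM, all above both controls. The means were 5.82 ± 0.607 CPM in controls (SD, n = 2), 26.6 ± 13.5 at D1 (n = 3, or 34 without D1_mixed 3) and 14.8 ± 12.9 at D2 (n = 3). They were 11.4 ± 16.8 at D3 (n = 5) and 13.7 ± 3.28 at D10 (n = 3). The D3 mean rests mostly on D3_resident 2, and the D3 median of 3.97 CPM lay below both controls.

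**Figure D1:**
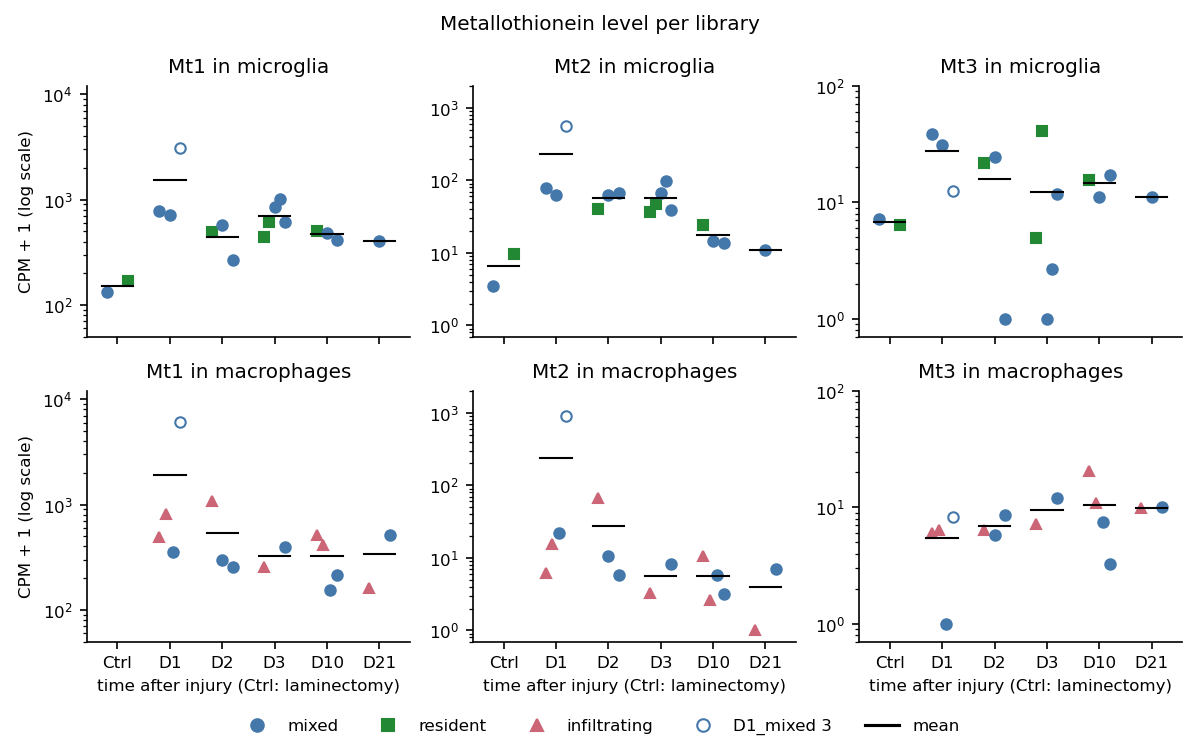
CPM + 1 on a log axis of Mt1, Mt2 and Mt3 per library, by time point, in microglia (upper row) and macrophages (lower row). Points are libraries, shaped and coloured by sort, bars are means, and the open circle is D1_mixed 3, which holds 3124 CPM of Mt1 in microglia and 6023 CPM in macrophages.

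Scaling matters for these ratios. With library sizes scaled by edgeR's TMM method, mean Mt1 in microglia was 110 CPM in controls and 1721 CPM at D1, and mean Mt3 was 4.33 and 29.7 CPM, so the direction was the same and the distance from controls larger. Member levels are raw CPM unless stated, and the test of the members by sort uses TMM.

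Macrophages carried Mt1 at levels that overlapped those of injured microglia at D1, D2, D10 and D21, but not at D3. The libraries compared at D3 held 254 and 395 CPM in macrophages and 445 to 1003 CPM in microglia. All 1887 control cells carried the microglia code, so D1 is the first time shown. At D1 Mt1 was 495 and 807 CPM in D1_infiltrating 1 and 2, 352 CPM in D1_mixed 1 (28 cells) and 6023 CPM in D1_mixed 3 (54 cells). At D2 it was 1076 CPM in D2_infiltrating 1 and 294 and 256 CPM in the mixed libraries. Later values were 254 and 395 CPM at D3, 510, 408, 155 and 214 CPM at D10, and 162 and 508 CPM at D21. The D1 mean was 1919 ± 2742 CPM (SD, n = 4), or 552 ± 233 (n = 3) without D1_mixed 3. The D2 mean was 542 ± 463 (n = 3), or 275 without D2_infiltrating 1. Later means were 324 ± 99.2 at D3 (n = 2), 322 ± 166 at D10 (n = 4) and 335 ± 245 at D21 (n = 2). Without D1_mixed 3 the times overlapped. The D2_infiltrating 1 value lay above its pool mates D1_infiltrating 1 and 2, and no pool holds D1 with D10 macrophages.

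Among the infiltrating and mixed libraries, 2 stood above the others in macrophage Mt2. It was 905 CPM in D1_mixed 3 and 65.4 CPM in D2_infiltrating 1. The other D1 libraries held 5.09, 14.4 and 21.2 CPM, and the D2 mixed libraries 9.56 and 4.85 CPM. From D3 on no infiltrating or mixed library passed 9.66 CPM. Mean Mt2 was 236 ± 446 CPM at D1 (SD, n = 4), or 13.5 ± 8.08 without D1_mixed 3. At D2 it was 26.6 ± 33.7 (n = 3), or 7.21 without D2_infiltrating 1. Later means were 4.69 ± 3.49 at D3 (n = 2), 4.60 ± 3.66 at D10 (n = 4) and 2.99 ± 4.22 at D21 (n = 2). Mean Mt3 in macrophages went from 4.42 ± 3.12 CPM at D1 (n = 4) and 5.92 ± 1.45 at D2 (n = 3) to 8.49 ± 3.37 at D3 (n = 2), 9.49 ± 7.27 at D10 (n = 4) and 8.89 ± 0.0938 at D21 (n = 2). The D10 values, 2.22 to 19.3 CPM, covered those of all other times except D1_mixed 1, at 0 with a limit of 12.7 CPM at 3 counts, so this order does not exceed the spread between libraries.

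Dendritic-like cells held less Mt1, with 251 ± 46.5 CPM at D1 (SD, n = 2), 222 ± 68.3 at D2 (n = 2), 217 ± 96.4 at D3 (n = 2), 171 ± 107 at D10 (n = 2) and 45.6 in the D21 library. Neutrophil-like cells held 115 ± 59.1 CPM at D1 and 129 ± 127 at D2 (n = 2 each). By the median over all libraries with at least 20 cells, Mt1 was 503 CPM in microglia, 401 in macrophages, 218 in dendritic-like cells and 145 in neutrophil-like cells. The ranges were 133 to 3124, 155 to 6023, 45.6 to 285 and 39.4 to 218 CPM, so those of microglia and macrophages overlapped over all times together. In the libraries compared at D3 they did not, with 445 to 1003 CPM in microglia and 254 to 395 CPM in macrophages. Without D3_conflict 1, whose neutrophil-like cells gave the median of 145, the macrophage median was 408 CPM and the neutrophil-like median 115 CPM over 4 libraries, and the other medians were the same. Median Mt2 was 37.7 CPM in microglia, 6.05 in macrophages, 2.59 in dendritic-like and 1.98 in neutrophil-like cells (6.12, 2.50 and 1.41 in the last 3 without D3_conflict 1). Within the 14 libraries that hold both cell types, microglia exceeded macrophages in Mt1 in 9, in Mt2 in 10 and in Mt3 in 8.

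Cells differ in depth, with median UMI counts of 3062 in microglia, 9144 in macrophages, 11361 in dendritic-like and 2154 in neutrophil-like cells, so shares of cells were compared after thinning each cell to 1000 UMIs. Before thinning, 60.5% of microglia, 72.1% of macrophages, 44.8% of dendritic-like and 15.5% of neutrophil-like cells had an Mt1 UMI. After it the shares were 36.7%, 29.7%, 13.6% and 8.96%, from 13259, 12784, 2697 and 2088 cells that were deep enough. In microglia the mean thinned share over libraries was 12.6% in controls and 51.6% at D1, with 26.9%, 41.2% and 34.6% for D2, D3 and D10. Without D1_mixed 3 the D1 share was 39.8%, below that of D3. Pooled over cells, thinned Mt2 shares were 0.477% in control microglia and 0.239% in neutrophil-like cells, and thinned Mt3 shares were 0.477% and 0.623%. The Mt3 share of control microglia thus did not exceed that of neutrophil-like cells and is not read as expression.

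The high level of D1_mixed 3 was spread over many of its microglia. The median cell held 5 Mt1 UMIs, against 1 in D1_mixed 1 and 2 and 0 in both controls. The highest cell held 216, against 305 in D1_mixed 1, 33 in D1_mixed 2 and no more than 9 in the controls. At 1000 UMIs, 22.4% of its microglia held at least 5 Mt1 UMIs, compared with 2.18% and 2.91% in D1_mixed 1 and 2. At that depth Mt2 was seen in 38.0% of its 993 microglia with Mt1 and in 14.1% of the 326 without. Among its 54 macrophages the median cell held 7 Mt1 UMIs and the highest 551, and the tenth of cells richest in Mt1 held 61.6% of the Mt1 UMIs. These macrophages had the highest microglia list of the D1 macrophage sums (1362 CPM, against 305 in D1_infiltrating 2) and the lowest macrophage list (17237 CPM). In microglia the tenth of cells richest in Mt1 held 47.9% of its Mt1 UMIs, close to the 52.3% and 46.2% of D1_mixed 1 and 2. In these counts the microglia of D1_mixed 3 thus differed from its neighbours in the level of Mt1 more than in how unevenly cells shared it.

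The share of Mt2 in the summed Mt1 and Mt2 counts gives the balance of the pair and does not depend on library size. In microglia it was 1.84% (exact 95% binomial interval 1.01 to 3.07) in Ctrl_mixed 1 and 4.95% (2.86 to 7.92) in Ctrl_resident 1. At D1 it was 9.02%, 8.08% and 15.1% (14.6 to 15.7 in D1_mixed 3). The mean was 3.40 ± 2.20% in controls (SD, n = 2), 10.7 ± 3.82% at D1 (n = 3; 8.55 ± 0.665% without D1_mixed 3), 12.4 ± 6.66% at D2 (n = 3), 7.26 ± 1.10% at D3 (n = 5) and 3.37 ± 0.888% at D10 (n = 3), with 2.38% in the D21 library. All D1, D2 and D3 libraries lay above both controls, the lowest at 5.82%, while the D10 libraries (2.72 to 4.38%) lay between them. The intervals cover counting error only, and the D2 mean includes 20% (9.58 to 34.6) in D2_mixed 2, from 45 UMIs.

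In macrophages the Mt2 share was lower in most libraries. It was 1.02% in D1_infiltrating 1 and 1.75% in D1_infiltrating 2, 5.68% in D1_mixed 1 and 13.1% (11.8 to 14.4) in D1_mixed 3, and 5.73% (5.18 to 6.31) in D2_infiltrating 1. From D3 on the means were 1.33 ± 0.646% (SD, n = 2), 1.59 ± 1.15% (n = 4) and 0.581 ± 0.822% (n = 2). In 10 of the 14 libraries with both cell types the Mt2 share was higher in microglia. D1_mixed 3 thus had the highest Mt2 share of the macrophage sums and nearly the highest of the microglia sums, along with the highest Mt1.

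**Figure D2:**
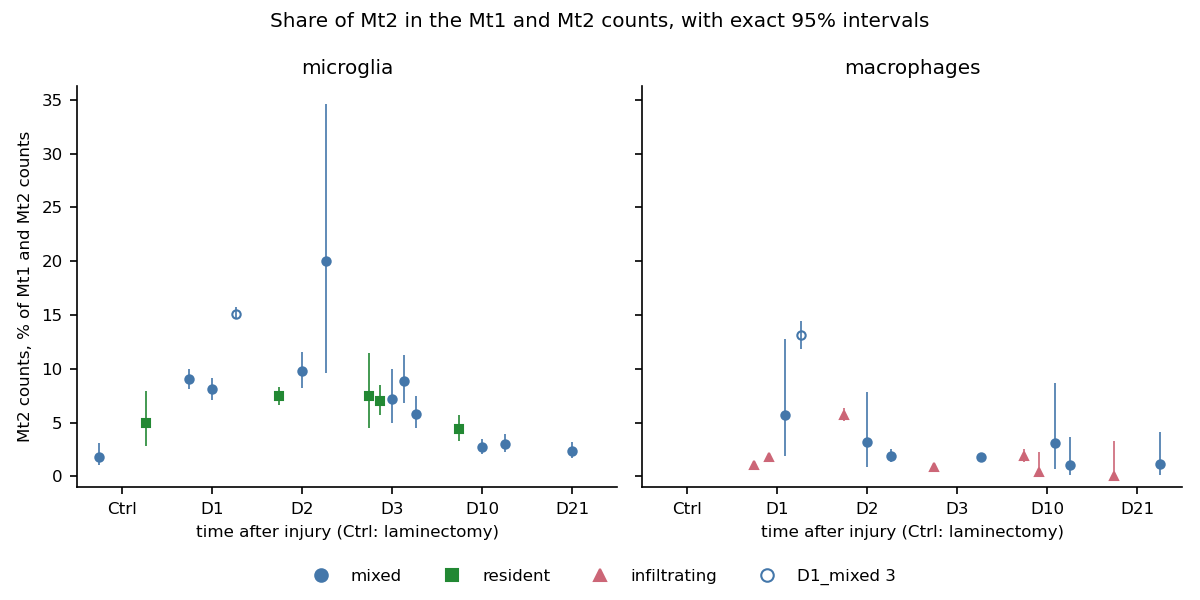
Mt2 counts as a percent of Mt1 and Mt2 counts per library and time point, in microglia (left) and macrophages (right), with exact 95% binomial intervals. In microglia the D1, D2 and D3 libraries lie above both controls (1.84% and 4.95%), and the D10 libraries lie between 2.72% and 4.38%.

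By cluster, Mt1 was highest in cluster 2, which holds 1924 cells of both microglia and macrophage codes with a median of 1876 UMIs. Pooled over its cells Mt1 was 2506 CPM, or 1327 CPM without D1_mixed 3, and the median over its 14 libraries with at least 20 such cells was 1350 CPM (range 462 to 4942). Its cells were 6.21% of all, and they held 10.3% of all Mt1 UMIs, 26.5% of Mt2 UMIs and 13.2% of Mt3 UMIs. Without D1_mixed 3 the cluster had 4.39% of cells with 4.38% of Mt1, 10.2% of Mt2 and 12% of Mt3 UMIs. Its share of Mt1 UMIs was then close to its share of cells. Its cells hold few UMIs, with a median of 1876 against 3062 in microglia and 9144 in macrophages. A share of cells thus hides its level per UMI, which without D1_mixed 3 was still the highest, at 1327 CPM against 619 CPM in cluster 5. Cluster 5, of microglia by the authors' code, followed at 950 CPM (619 without D1_mixed 3; library median 635, range 468 to 2409). Cluster 14, with 118 cells, had a pooled 867 CPM, which became 362 CPM without D1_mixed 3; its 2 libraries with at least 20 cells held 87.6 and 404 CPM. Clusters 11, 6, 3, 8, 12 and 9 lay between 559 and 411 CPM and overlapped in their libraries. Cluster 11, which holds 1045 cells of D3_conflict 1, had 624 CPM of Mt1 and 23.3 of Mt2 without it. Clusters 4, 10 and 7 held 329, 293 and 241 CPM, while the 1 library with at least 20 cells of cluster 10 held 503 CPM. The lowest were cluster 15, the dendritic-like cells, at 185 CPM, cluster 1, all 1887 control cells, at 141 CPM, cluster 16, the neutrophil-like cells, at 128 CPM, and cluster 13 at 56.4 CPM.

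Mt2 followed with cluster 2 first at 352 CPM (101 without D1_mixed 3), then cluster 14 at 173 (61.0), cluster 5 at 123 (54.1) and cluster 6 at 39.7 CPM, and all others below 21 CPM. Mt3 led in cluster 2 at 59.0 CPM (77.6 without D1_mixed 3), ahead of cluster 5 at 18.0, cluster 14 at 17.3, cluster 3 at 16.7, cluster 6 at 15.9 and cluster 9 at 12.3 CPM. By the median over libraries cluster 2 still led, at 30.1 CPM (range 0 to 185), but clusters 14, 3 and 9, at 18.3, 17.6 and 15.1 CPM, came before cluster 5, at 11 CPM, so no order is read after cluster 2. Cluster 9 holds macrophages, and its pooled Mt3 lay above that of the macrophage clusters 8, 11 and 12, at 6.08, 6.24 and 3.28 CPM, although its libraries (4.93 to 20.3 CPM) overlapped with theirs. Since these levels chose the genes, no cluster is tested against the rest.

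D1_mixed 3 had 45.4% of its cells in cluster 2 (625 cells), against 15.2% and 15.3% in D1_mixed 1 and 2. Its Mt1 was also higher within clusters. In cluster 2 it was 4942 CPM, against 2286 and 1478 CPM in D1_mixed 1 and 2. In cluster 5 it was 2409 CPM, against 653 and 648 CPM. Mt3 went the other way in both clusters: 20.6 CPM against 185 and 184 in cluster 2, and 8.16 CPM against 25.4 and 19.3 in cluster 5. Cluster 2 Mt3 was also 144 CPM in D3_resident 2 and 141 CPM in D10_mixed 2, and 0 in D3_mixed 1, 2 and 3, where 3 counts would give 45, 31.1 and 33 CPM.

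**Figure D3:**
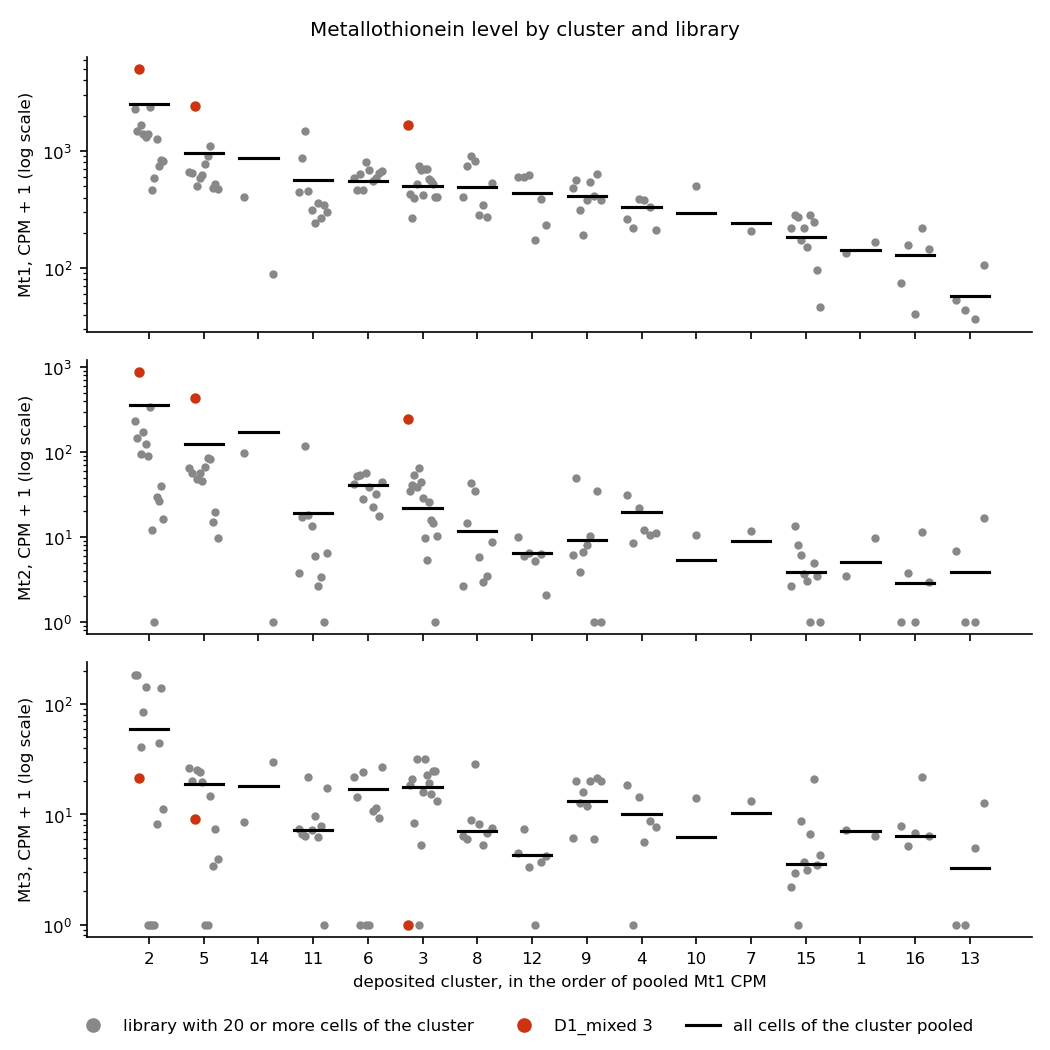
CPM + 1 on a log axis of Mt1, Mt2 and Mt3 in the 16 deposited clusters, ordered by pooled Mt1. Grey points are libraries with at least 20 cells of the cluster, the red point is D1_mixed 3, and bars pool all cells, from 2506 CPM of Mt1 in cluster 2 to 56.4 CPM in cluster 13.

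RNA of other cells moved with some of these values. The 8 astrocyte markers summed to 146 and 159 CPM in control microglia and to 78.9 to 108 CPM at D10. At D1 they summed to 100 and 79.5 CPM in D1_mixed 1 and 2 and to 12.3 CPM, the lowest of all, in D1_mixed 3. At D3 they summed to 12.4 and 20.3 CPM in D3_mixed 1 and 2, where Mt3 was 0 and 1.69 CPM, and to 27.8 CPM in D3_resident 1, where Mt3 was 3.97 CPM. They summed to 63.1 CPM in D3_resident 2, where Mt3 was 40.4 CPM, but to 104 CPM in D3_mixed 3, where it was 10.7 CPM. Controls, with the highest astrocyte sums, had Mt3 of 6.25 and 5.39 CPM. Between 4 and 8 of the 8 markers had counts in each sum. The 7 neuron markers summed to 19.8 and 16.7 CPM in controls, to 15.5, 22.2 and 3.48 CPM in D1_mixed 1, 2 and 3, to 51.8 to 104 CPM at D2, to 2.06 CPM in D3_mixed 1, 14.4 CPM in D3_resident 2 and 50.3 CPM in D3_mixed 3, and to 13.5 to 21 CPM at D10. Their sum was thus highest at D2, and Mt3 was not. The part of astrocyte and neuron RNA in Mt3, which both cell types express, was not tested. Mt1 was 3124 CPM in D1_mixed 3 and 855 CPM in D3_mixed 1, the 2 libraries with the lowest astrocyte sums, and the part of astrocyte RNA in Mt1 was not tested. In cluster 2 the astrocyte list summed to 123 CPM, the oligodendrocyte list to 380 CPM and the microglia list to 3318 CPM. In cluster 14 a list of genes known to respond to tissue dissociation summed to 4528 CPM, against 534 CPM in cluster 2, and its part in the levels there was not tested.

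**Figure D4:**
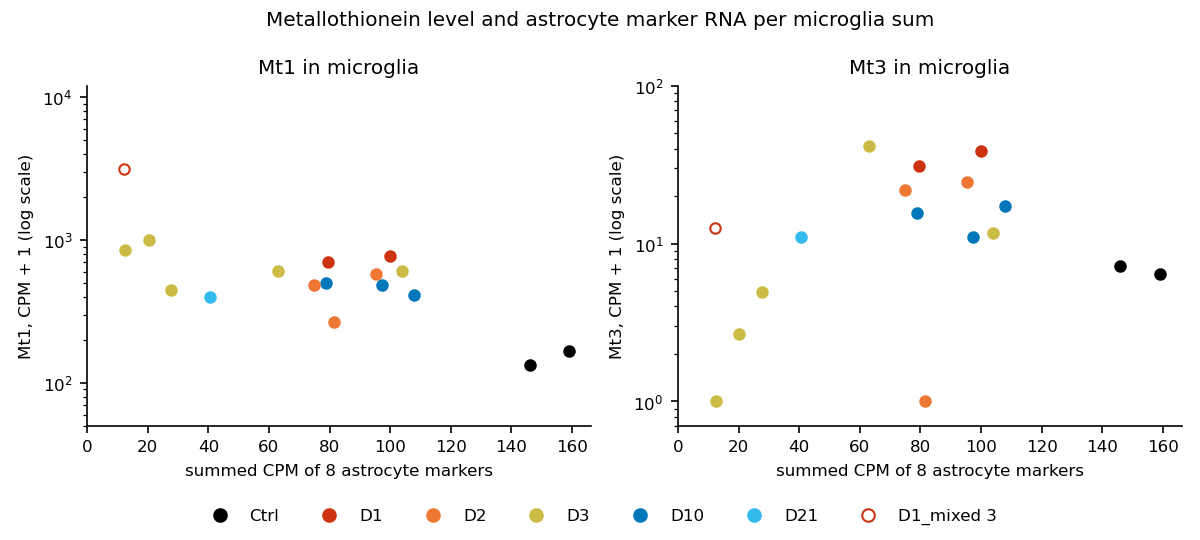
CPM + 1 on a log axis of Mt1 (left) and Mt3 (right) against the summed CPM of 8 astrocyte markers, for the 17 microglia sums coloured by time point. D1_mixed 3, the open circle, has the lowest astrocyte sum (12.3 CPM) and the highest Mt1 (3124 CPM), and both controls have the highest astrocyte sums (146 and 159 CPM).

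The sort of the cells was not used to choose the genes, so it was tested, with edgeR's quasi-likelihood test and Benjamini-Hochberg adjustment over all genes. In microglia, mixed libraries (n = 12) against resident libraries (n = 5) differed in Mt1 by 0.11 ± 0.34 on the log2 scale (SE; 95% interval -0.62 to 0.84; adjusted p = 1.00), with time and sex as terms. Mt2 differed by -0.00 ± 0.52 (-1.10 to 1.10; edgeR adjusted p = 1.00) and Mt3 by -0.75 ± 0.54 (-1.88 to 0.38; edgeR adjusted p = 1.00). Only 0.148% of 10801 genes passed an adjusted p of 0.05 in that comparison. In macrophages, mixed (n = 8) against infiltrating libraries (n = 7) differed in Mt1 by 0.39 ± 0.63 (-0.98 to 1.75; edgeR adjusted p = 0.866) and in Mt2 by 2.17 ± 1.24 (-0.49 to 4.83; edgeR adjusted p = 0.633), and 0.0117% of 8577 genes passed. Without D1_mixed 3 these macrophage differences were -0.45 and -0.05, Mt1 was -0.01 without D21_mixed 1, and in microglia Mt3 was 0.02 without D3_resident 2. No difference by sort was detectable, and the intervals allow changes of more than 1 log2 unit for Mt2 in both cell types, for Mt3 in microglia and for Mt1 in macrophages. Mt3 in macrophages did not pass the filter on low counts.

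Lists of other genes put the members in their setting: 34 genes of zinc and copper handling, and 22 genes of the signals known to induce Mt1 and Mt2. The second list holds genes that respond to these signals and also parts of the pathways themselves, such as Nr3c1, Il6ra, Il6st, Stat3 and Nfe2l2. Both lists were tested in microglia at D1, D2, D3 and D10 against Ctrl, with TMM scaling and edgeR. All 4 contrasts share the 2 control libraries. At D1, 9 of the 27 metal handling genes tested were higher and 1 lower, beside 23.9% of all 10801 genes higher and 22.7% lower. At D2 the metal counts were 4 and 2, beside 17.6% and 12.2% of all genes. At D3 they were 5 and 3, beside 20.1% and 17.6%, and at D10 5 and 0, beside 8.06% and 2.22%. The list medians were 0.54, -0.17, -0.04 and 0.02 on the log2 scale, against medians of all genes between -0.04 and -0.01.

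These counts depend on the scaling. With total counts in place of TMM, the median of all genes in microglia shifts to -0.73, -0.40, -0.62 and -0.60 in the order of the 4 times, and the share of calls that are higher goes from 51.2%, 59.1%, 53.3% and 78.4% to 22.6%, 32.6%, 22.9% and 18.6%. Of all genes, 11.9% were then higher and 40.6% lower at D1, 11.7% and 24.2% at D2, 10.9% and 36.6% at D3, and 4.57% and 20% at D10. The metal handling counts then become 5 higher and 6 lower at D1, 4 and 5 for D2, 4 and 7 for D3, and 2 and 7 for D10. Of the genes called with TMM, those also called in the same direction with total counts numbered 5 higher and 1 lower at D1, 4 and 2 for D2, 4 and 3 for D3, and 2 and 0 for D10, and no list gene was called in opposite directions. The values below are for TMM, with the total-count value where it ends a call. They also rest on the controls: without Ctrl_mixed 1 the metal handling calls numbered 6 against 10 at D1, 1 against 6 at D2 and 1 against 5 at D10. Without Ctrl_resident 1 they were 6 at D1, 4 against 8 at D3 and 1 at D10, and at D10 they were 2 without D10_mixed 1 and 1 without D10_resident 1. A pool term could be fitted at D2, D3 and D10. It ended 8 of the 14 calls of named genes at D2 and 12 of 14 at D3, where Atox1 and Hmox1 kept theirs, and 0 of 7 at D10. From mixed libraries alone, with 1 control library, 11 of the 14 calls of named genes at D1 were lost, and Atox1, Hmox1 and Srxn1 kept theirs.

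Among zinc importers, 4 of 12 were higher and 1 lower at D1 with TMM, and 2 higher and 3 lower with total counts. These counts stand beside 23.9% of all genes higher and 22.7% lower with TMM, and 11.9% and 40.6% with total counts. Slc39a14 (ZIP14), which brings zinc into cells in inflammation, went from 9.68 ± 0.0444 CPM in controls (SD, n = 2) to 42.3 ± 4.93 at D1 (n = 3), a rise of 3.05 ± 0.52 on the log2 scale (SE; edgeR adjusted p = 2.56e-04; 2.33 with total counts). It rose at D2 by 2.14 ± 0.50 (edgeR adjusted p = 0.00632; 0.113 without Ctrl_mixed 1). From mixed libraries alone, with 1 control library, its adjusted p was 0.278 at D1 and 0.0761 at D2. Slc39a11 was higher at D1 by 1.31 ± 0.32 (edgeR adjusted p = 0.00363), but not with total counts (0.59) or without Ctrl_resident 1 (edgeR adjusted p = 0.0518). Slc39a2 had 0 counts in controls. Set against 3 counts over the control group, it was at least 2.41-fold higher at D1, 8.01-fold at D2, 9.46-fold at D3 and 4.35-fold at D10, from 12, 32, 20 and 20 counts, and these calls were lost without Ctrl_mixed 1 (edgeR adjusted p 0.170, 0.139, 0.0512 and 0.333), at D1 also without cluster 2 (0.0504), at D2 also without D2_resident 1 (0.0516), at D10 also without Ctrl_resident 1 (0.0638) or D10_resident 1 (0.0950), at D2 and D3 with a pool term (0.0581 and 0.447), and at all 4 times from mixed libraries alone (0.122 to 0.478). Slc39a9 differed by -1.19 at D1 (edgeR adjusted p = 0.0113; 0.0589 without Ctrl_mixed 1 and 0.0821 without Ctrl_resident 1), by -0.96 at D2 (0.0497) and by -1.03 at D3 (0.0273). The D2 and D3 calls were lost in 12 and 5 of 17 fits that each left out 1 library (edgeR adjusted p up to 0.259 and 0.140, both without Ctrl_mixed 1) and with a pool term (0.225 and 0.617). No zinc exporter was called higher by edgeR in any of the 4 contrasts (0 at an unadjusted p under 0.05 and 0 with DESeq2). Of 6, 1 fell at D3: Slc30a7, which loads zinc into the secretory pathway, by 1.20 ± 0.32 (edgeR adjusted p = 0.00588). The call was lost with a pool term (-0.64, edgeR adjusted p = 0.766) and without Ctrl_resident 1 (-1.01). From mixed libraries alone the direction turned, to 0.69. With total counts 1, 2, 4 and 2 exporters were lower in the order of the times.

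Mtf1, the zinc sensor, and Slc30a1, the exporter of the cell surface that is a known MTF1 target, passed the test in none of the 4 contrasts. Mtf1 differed from controls by 0.41, 0.10, 0.34 and -0.08 on the log2 scale in the order of the 4 times (edgeR adjusted p 0.343, 0.851, 0.425 and 0.936), and by -0.32, -0.31, -0.25 and -0.67 with total counts. Slc30a1 differed by 0.02, -0.43, -0.24 and 0.18 (edgeR adjusted p 0.98, 0.576, 0.754 and 0.864), and by -0.69, -0.83, -0.83 and -0.40 with total counts. Its level was 9.23 ± 0.676 CPM in controls (SD, n = 2) and 6.49 ± 1.28 at D1 (n = 3), so the direction is not resolved.

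With TMM, copper genes were called more often higher than lower at each time. At D1, 5 of 8 were higher and 0 lower with TMM, and 3 higher and 2 lower with total counts, which gave 1 and 1 at D10. All genes leaned the same way, with 23.9% higher and 22.7% lower at D1 and 78.4% of the calls higher at D10 with TMM. Atox1, the cytosolic copper chaperone, was the most stable of them: 261 ± 45.6 CPM in controls (SD, n = 2), then 514 ± 40.8 (D1, n = 3), 571 ± 73.6 (D2, n = 3), 702 ± 71.0 (D3, n = 5) and 675 ± 73.9 (D10, n = 3). It rose by 1.67, 1.49, 1.99 and 1.95 on the log2 scale (edgeR adjusted p 9.62e-05, 4.29e-04, 2.49e-05 and 8.68e-05), and was called in all 4 contrasts with total counts too. Cox17, which delivers copper to cytochrome oxidase, rose by 2.09 ± 0.41 at D1 (edgeR adjusted p = 0.001), and Commd1, which takes part in copper export, by 1.81 ± 0.34 (5.38e-04). From mixed libraries alone these calls were lost (edgeR adjusted p 0.0545 and 0.0753). At D10 both calls were lost with total counts, and also without Ctrl_mixed 1 (edgeR adjusted p 0.198 and 0.291), Ctrl_resident 1 (0.162 and 0.0699), D10_mixed 1 (0.0580 and 0.0600) or D10_resident 1 (0.120 and 0.152). Commd1 was also called at D2 and D3 (edgeR adjusted p 0.00159 and 7.56e-04), but not at D2 without Ctrl_mixed 1 (0.0602), at D3 from mixed libraries alone (0.113) or at D10 without cluster 2 (0.0520). With a pool term both were lost at D3 (edgeR adjusted p 0.374 and 0.581). Slc31a2, a vesicular copper transporter, fell at D2 by 1.22 ± 0.34 (edgeR adjusted p = 0.0122), but not with a pool term (0.138) or without Ctrl_mixed 1 (0.106), Ctrl_resident 1 (0.0600) or D2_mixed 1 (0.107).

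Of the 21 tested genes of the inducing signals list, 6 were higher and 4 lower at D1, and 4 and 5 for D2. The numbers were 4 and 6 for D3, and 2 and 1 for D10, against the shares of all genes given above. With total counts the counts were 3 and 9, 4 and 7, 3 and 11, and 2 and 7. Without Ctrl_mixed 1 the calls numbered 4 at D1 and 3 at D2, and without D2_mixed 1 they numbered 3 at D2. At D10 they numbered 0 without Ctrl_mixed 1 with edgeR (4 at an unadjusted p under 0.05, 1 with DESeq2), 1 without Ctrl_resident 1, 1 without D10_resident 1, 5 without D1_mixed 3 and 5 without D3_resident 2. The higher genes were mostly those of the oxidant response through NRF2: 5 of 8 at D1, then 4, 4 and 2 for the later times, with 0 lower by edgeR (also 0 at an unadjusted p under 0.05; DESeq2 called 1 lower at D1). With total counts 3 of the 5 remained at D1, and 1, 1, 2 and 1 were lower.

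Hmox1, the heme oxygenase that NRF2 and heme induce, went from 50 ± 9.35 CPM in controls (SD, n = 2) to 1396 ± 527 (D1, n = 3), 473 ± 269 (D2, n = 3), 658 ± 201 (D3, n = 5) and 127 ± 6.36 (D10, n = 3). It rose by 5.55 ± 0.50 on the log2 scale at D1 (edgeR adjusted p = 7.71e-06), and by 3.70, 4.32 and 1.93 later (edgeR adjusted p 1.83e-04, 3.76e-05 and 0.0195), the last call being lost without Ctrl_mixed 1 (0.246), without Ctrl_resident 1 (0.104) and without D10_resident 1 (0.0697). Srxn1, the sulfiredoxin that restores oxidised peroxiredoxins, rose by 4.60, 3.64, 3.89 and 2.97 (edgeR adjusted p 6.57e-06, 8.50e-05, 3.09e-05 and 8.27e-04; 0.0615 at D10 without Ctrl_mixed 1). Slc7a11, the cystine importer, rose at D1 by 3.27 ± 1.14 (edgeR adjusted p = 0.0247), a call lost with total counts (0.0649) and without Ctrl_mixed 1 (0.0552) or Ctrl_resident 1 (0.230). Txnrd1, thioredoxin reductase, rose at D1 by 2.52 ± 0.39 (edgeR adjusted p = 1.57e-04; 1.78 with total counts), at D2 by 1.68 ± 0.38 (0.00495; 0.0895 without Ctrl_mixed 1 and 0.0625 without D2_mixed 1) and at D3 by 1.73 ± 0.36 (0.00223). Nqo1 had 0 counts in controls and was at least 3.00-fold higher at D2, from 12 counts, a call lost without Ctrl_mixed 1 (edgeR adjusted p = 0.197), Ctrl_resident 1 (0.0838) or D2_mixed 1 (0.246). With a pool term the calls of Srxn1 and Txnrd1 at D3 (edgeR adjusted p 0.189 and 0.591) and of Nqo1 at D2 (0.236) were lost. Of the genes of both lists, Atox1, Commd1, Hmox1, Slc39a2 and Srxn1 were called higher at all 4 times with TMM.

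Few genes of the glucocorticoid and interleukin-6 groups were called higher. Nr3c1, Il6ra and Il6st are receptors or parts of them, so their lower values are not read as a weaker response. Of the 7 glucocorticoid genes, 2 were lower at D1, 2 at D2 and 2 at D3, beside 22.7%, 12.2% and 17.6% of all genes, and 0 were called higher by edgeR at any of the 4 times (2 at D1 at an unadjusted p under 0.05, 0 with DESeq2). Nr3c1, the glucocorticoid receptor, fell by 1.40 ± 0.45 at D1 (edgeR adjusted p = 0.0181; 0.135 without Ctrl_mixed 1, 0.0574 without D1_mixed 1 and 0.0622 without D1_mixed 2). Per1, a clock gene that glucocorticoids induce, fell by 2.54 ± 0.81 at D3 (edgeR adjusted p = 0.012). The call was lost without Ctrl_resident 1 (-1.95) and with a pool term (edgeR adjusted p = 0.941). From mixed libraries alone the direction of Per1 turned, to 4.24. Sgk1, a glucocorticoid-induced kinase, differed by -0.85 ± 0.34 at D1 (edgeR adjusted p = 0.0464), a call lost in 10 of 17 fits that each left out 1 library (up to 0.285, without Ctrl_resident 1) and without cluster 2 (0.0570). Of the 6 genes of the interleukin-6 and STAT3 group, 1 was higher and 2 lower at D1, and 4 were lower at D3, beside the same shares. Il6ra, the interleukin-6 receptor chain, fell at D1 by 2.85 ± 0.48 (364 ± 90 CPM in controls, 31.9 ± 14.3 at D1; edgeR adjusted p = 2.10e-04, or 0.223 from mixed libraries alone), by 2.69 at D2 and by 2.74 at D3, the last call being lost with a pool term (-0.82; adjusted p = 0.670). Il6st, its signalling partner gp130, fell by 1.54 at D2 and 1.98 at D3, but not with a pool term (edgeR adjusted p 0.0657 and 0.450), and at D2 not without Ctrl_mixed 1 (0.237) or D2_mixed 1 (0.180). Socs3, a feedback inhibitor that STAT3 induces, fell by 1.77 at D3, but not with a pool term (edgeR adjusted p = 0.163) or without Ctrl_resident 1 (0.280). Its D10 difference of -1.61 (edgeR adjusted p = 0.0353) was not called without either control library or any 1 of the 3 D10 libraries (0.0593 to 0.541). Junb differed by -0.77 at D1, a call lost in 11 of 17 fits without 1 library (edgeR adjusted p up to 0.254, without Ctrl_mixed 1), and by -1.16 at D2, lost with a pool term (0.0852) and without Ctrl_mixed 1 (0.123) or D2_mixed 1 (0.0634). Bcl3 was higher at D1 by 1.60 ± 0.44 (edgeR adjusted p = 0.00673), though not with total counts (0.108) or without Ctrl_mixed 1 (0.0682). A list of 10 genes known to respond to tissue dissociation, of which Junb and Dusp1 are also in these groups, moved with the lower values: it summed to 1170 and 1656 CPM in control microglia, 417 to 625 CPM at D1, 359 to 578 at D2, 228 to 504 at D3 and 660 to 837 at D10. Its part in the lower values was not tested.

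**Figure D5:**
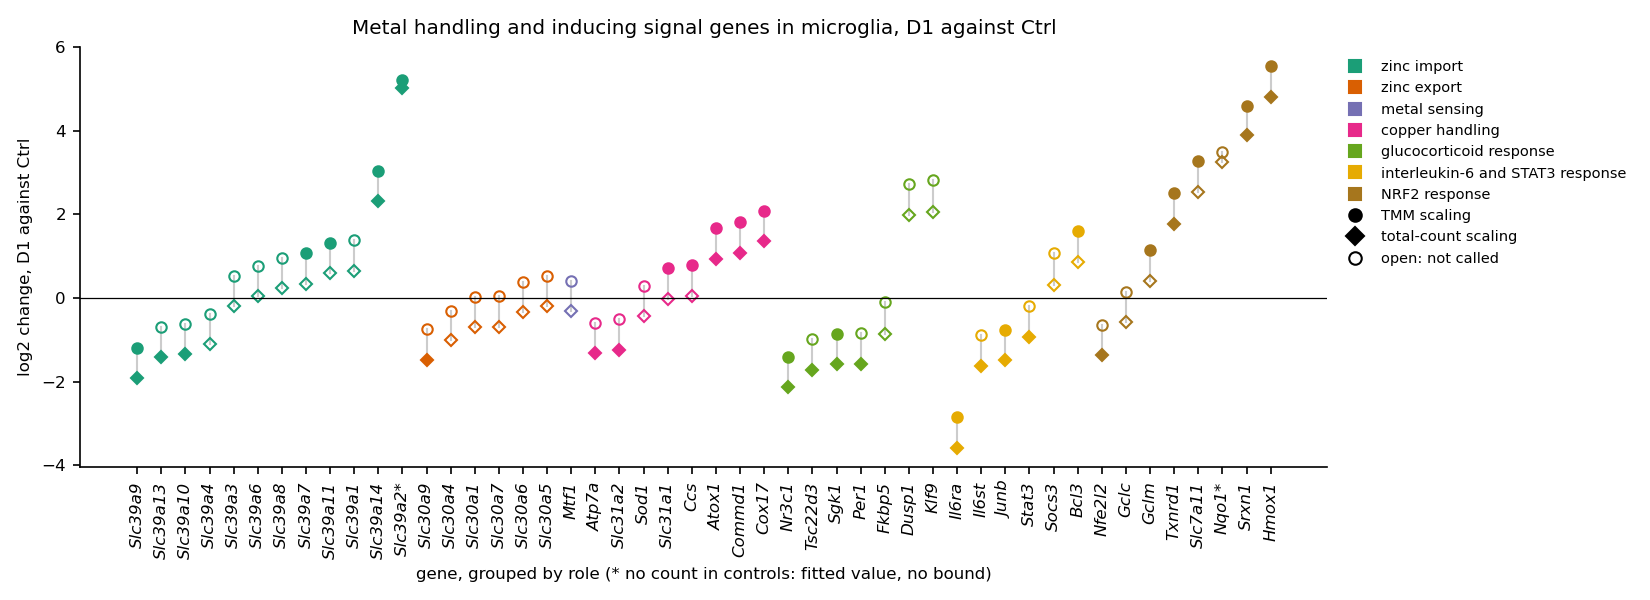
log2 change at D1 against Ctrl in microglia of each tested metal handling and inducing signal gene, grouped by role, with TMM scaling (circles) and total-count scaling (diamonds); filled symbols passed an adjusted p of 0.05. Hmox1 (5.55) and Srxn1 (4.60) rose most among genes with counts in controls, Il6ra fell most (-2.85), and total-count values lie lower for every gene.

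In macrophages the same lists were compared at D10 against D1. Of 23 metal handling genes tested, 1 was higher and 4 lower, and of 20 inducing signal genes 0 were higher by edgeR (0 at an unadjusted p under 0.05, 0 with DESeq2) and 9 lower, beside 7.31% of all 8577 genes higher and 7.04% lower. The medians were -0.52 and -1.31 on the log2 scale, against 0.01 for all genes, and with total counts the counts were 1 and 3, and 0 and 9. Without D1_infiltrating 2 the calls numbered 3 and 5. The dissociation list, which shares Dusp1 and Junb with the inducing signal list, held 1879 to 2347 CPM at D1 and 594 to 655 CPM at D10 without overlap, and the macrophage list held 17237 to 29552 CPM at D1 and 39599 to 152934 CPM at D10, also without overlap. The microglia list in these macrophage sums was 305 to 1362 CPM at D1 and 964 to 3596 CPM at D10, and the part of the 3 lists in these differences was not tested. No pool holds D1 and D10 macrophages, so the pool cannot be told apart from the time.

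Of the NRF2 group, 5 of 7 fell. Hmox1 fell by 4.54 ± 0.39 on the log2 scale, from 2850 ± 872 CPM at D1 (SD, n = 4) to 121 ± 17.8 at D10 (n = 4; edgeR adjusted p = 8.53e-05). Slc7a11 fell by 6.52 ± 1.13 (311 ± 117 to 3.65 ± 3.50 CPM; edgeR adjusted p = 0.00372) and Srxn1 by 3.30 ± 0.73 (0.0121). Dusp1, a phosphatase that glucocorticoids and stress induce, fell by 4.49 ± 0.87 (edgeR adjusted p = 0.00877) and Sgk1 by 1.59 ± 0.38 (0.0181; 0.0585 without D10_mixed 1, 0.0521 without D10_mixed 2 and 0.0851 without D1_infiltrating 2). Socs3 fell by 3.28 ± 0.49 (edgeR adjusted p = 0.00211) and Stat3 by 1.33 ± 0.33 (0.0192; 0.0514 without D10_mixed 1 and 0.0611 without D1_infiltrating 2). Among zinc importers, 3 of 9 fell: Slc39a14 by 3.88 ± 0.71 (59.0 ± 33.1 to 3.70 ± 2.79 CPM; edgeR adjusted p = 0.0041), Slc39a1 by 1.58 ± 0.37 (0.0162) and Slc39a7 by 0.99 ± 0.29 (0.0399; 0.0523 with total counts, and lost in 7 of 15 fits without 1 library, up to 0.0939 without D10_mixed 2). Slc31a1, the copper importer, fell by 1.27 ± 0.28 (edgeR adjusted p = 0.0117; 0.0735 from mixed libraries alone) and Sod1, the copper and zinc superoxide dismutase, was the gene that rose, by 1.55 ± 0.33 (0.0103; 0.0531 without D1_infiltrating 2). Mtf1 differed by -0.63 ± 0.32 (edgeR adjusted p = 0.198) and Slc30a1 by -0.52 ± 0.48 (0.496).

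Likeness between genes was measured as Pearson's r of log2(CPM + 5) over 54 sums of all cell types and over 19 microglia sums, which share libraries, depth and cell composition, so r is given without p. Of the 54 sums 3 are of D3_conflict 1, and without them no r from the full set of sums moved by more than 0.01. Mt1 and Mt2 had r = 0.80 over all sums (0.69 without D1_mixed 3) and 0.71 over microglia (0.54). Mt1 and Mt3 had r = 0.26 and 0.17, and Mt2 and Mt3 0.28 and 0.21. Mt3 had 1869 UMIs in all, against 101098 of Mt1, and the part of low counts in its lower r was not tested. Leaving out the members themselves, the genes nearest to Mt1 over all sums were Cndp2 (0.76), C3ar1 (0.75), Lpl (0.73), Msr1 (0.73) and Myo1e (0.73) of 5548 compared. Without D1_mixed 3 these genes had r = 0.76, 0.78, 0.76, 0.71 and 0.79 with Mt1. Other than Mt1, those nearest to Mt2 were Ccl12 (0.72), Pla2g4a (0.67), Mif (0.67), Calu (0.67) and Msr1 (0.67). Without D1_mixed 3 their r with Mt2 was 0.76, 0.69, 0.59, 0.66 and 0.63. Those nearest to Mt3 reached no more than 0.51 (Psen2), followed by Gkap1 (0.47), Gpr65 (0.47), Hs2st1 (0.46) and Emc7 (0.44). Within microglia, of 5293 genes, Mt1 was nearest to Lilr4b (0.89), Slirp (0.88), Sec61g (0.86), Sod2 (0.85) and Mif (0.84). Without D1_mixed 3 these were 0.88, 0.93, 0.89, 0.76 and 0.87. Mt2 was nearest to Ndufa12 (0.91), Adh5 (0.90), Glrx (0.89), Dok2 (0.88) and Psma6 (0.87), or 0.93, 0.88, 0.85, 0.87 and 0.83 without D1_mixed 3. Mt3 was nearest to Krtcap2 (0.78), Wdr89 (0.73), Sept11 (0.71), Ppp2cb (0.71) and Psme1 (0.70).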

How the data were processed

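Each library's matrix, as deposited, holds unnormalized UMI counts by gene and cell. The authors' cell table gives the percent of mitochondrial counts, the sequencing pool, the cluster and a cell type code. Per the submitters' processing notes, Cell Ranger 3.1.0 and the builds GRCm38 and mm10 were used, with no role stated, and the annotation and cell filters are not given in the sources used here; the lowest cell held 713 UMIs and the highest mitochondrial share was 22.65%. Cell sums equalled the deposited totals for 30958 cells.

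Counts were summed per cell type and library (20 cells or more), and CPM is counts over all counts of the same cells. Other genes and the sort were tested with edgeR 4.0.16 in R 4.3.3 (TMM, filterByExpr, quasi-likelihood test, 2-sided, Benjamini-Hochberg over all genes) with time, sex and, for the sort, sort as terms; the code was tested on simulated data. Values 'called' have an adjusted p under 0.05. DESeq2 1.42.0 was an alternative. Named genes were Mtf1, Slc30a1 and up to 3 called genes of each role group with the largest change. The members and lists were chosen with earlier results of these data known. D3_conflict 1 was left out of comparisons over time and by sort, and kept in levels by cell type and cluster and in the likeness between genes, which were also computed without it, a choice made after seeing the data. D2_infiltrating 1 is labelled female but carries the male code, and the label was used. Promoters are from RefSeq (GRCm38.p6), where all 3 members matched.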

Additional observations from a re-analysis of the deposited data

Results flagged for a closer look

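In groups of 4 to 10 libraries, a library was picked out when its gap to the nearest other took up most of the group's range by Dixon's criterion. Of 12 groups checked, 3 held such a library. Chance picks about 1 group in 20, but these levels chose the genes, so the picks are a description and no test. D1_mixed 3 stood apart among D1 macrophages with 6023 CPM of Mt1 and 905 CPM of Mt2, from 54 cells. D3_resident 2 stood apart among D3 microglia with 40.4 CPM of Mt3.

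Sums outside the comparisons over time also held metallothionein RNA: 15 of 21 values lay above the limit of 3 counts or, for microglia, also above the highest control. In macrophages of the libraries sorted as resident, Mt1 was 593 CPM in D2_resident 1, 476 in D3_resident 1, 363 in D3_resident 2 and 651 in D10_resident 1. Mt2 there was 34.7 CPM in D2_resident 1, 6.12 in D3_resident 2 and 30.6 in D10_resident 1, and Mt3 was 21.5, 5.24 and 19.5 CPM in the same libraries. In D3_conflict 1 the macrophages held 358 CPM of Mt1, 2.87 of Mt2 and 4.46 of Mt3. In microglia of infiltrating libraries Mt1 was 606 CPM in D10_infiltrating 2 (36 cells) and 429 CPM in D21_infiltrating 1 (41 cells), against 166 CPM in the highest control.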

How the results depend on the processing

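Of 387 recomputed member levels 371 stayed within the spread between libraries. With TMM-scaled library sizes mean Mt1 and Mt3 of control microglia were 110 and 4.33 CPM, and Mt3 of D21 macrophages was 9.66. As a median over libraries, a choice made after seeing the data, cluster 2 held 1350 CPM of Mt1 and 92.3 of Mt2, and cluster 14 held 246 and 48.6; from mixed libraries alone cluster 14 held 1597 and 324. With 1 library left out, cluster 2 ranged from 1327 to 2682 CPM of Mt1 and from 101 to 387 of Mt2, cluster 5 from 619 to 1061 and from 54.1 to 145, cluster 14 from 362 to 1159 and from 61.0 to 221, and cluster 1 from 133 to 166 of Mt1 and from 2.50 to 8.63 of Mt2.

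For differences by sort, 19 of 118 values changed sign and none passed the threshold. With 1 library left out Mt1 in microglia ranged from -0.10 to 0.24, Mt2 from -0.36 to 0.37 and Mt3 from -1.22 to 0.02, and in macrophages Mt1 from -0.45 to 0.92 and Mt2 from -0.05 to 3.42. Mt2 in microglia was 0.01 with median-of-ratios scaling and 0.00 without the filter, with 50 cells or with total counts, and Mt1 in macrophages was -1.38 with a pool term; the cause was not tested.

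Of 254 counts of called genes 221 stayed within 1.5 times. With 1 library left out, metal handling calls ranged from 6 to 11 (D1), 1 to 6 (D2), 4 to 9 (D3) and 1 to 5 (D10), and inducing signal calls from 4 to 11, 3 to 10, 7 to 11 and 0 to 5; in macrophages they ranged from 3 to 6 and from 5 to 11. From mixed libraries alone, which leave 1 control library assumed to vary like the others, metal handling calls were 1, 2, 1 and 1 in the order of the times, and inducing signal calls 3 for D1, 3 for D3 and 1 for D10. A pool term, which could be fitted at D2, D3 and D10, gave 2 metal handling calls at D3 and 4, 1 and 5 inducing signal calls. At D10 total counts gave 9 and 9 calls, and no filter gave 5 inducing signal calls. Between D3 and D1 mixed microglia, inducing signal calls went from 1 to 3 with a replicate block and metal handling calls stayed at 2. The numbers did not pair the libraries: r of deviations was -0.00, 0.15 and 0.14 for equal numbers, and numbers 2 and 3, but not 1, were nearest to their own.

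Of 1780 values of named genes 1570 kept direction and side, 182 lost the call and 28 changed sign. Mtf1 was -0.32, -0.31 and -0.25 at D1, D2 and D3 with total counts, -0.01 at D2 with median-of-ratios scaling, -0.00 at D2 with a pool term and 1.41 at D10 in mixed libraries. Slc30a1 at D1 was -0.14 with median-of-ratios scaling, -0.15 with DESeq2, -0.09 without the filter, -0.06 with 50 cells and -0.69 with total counts; it was 0.17 at D2 and 1.62 at D3 with a pool term, 5.43 at D3 in mixed libraries and -0.40 at D10 with total counts. At D3 in mixed libraries Per1 was 4.24 and Slc30a7 0.69. With 1 library left out Slc30a1 ranged from -0.11 to 0.27 at D1 and -1.56 to 0.02 at D2, and Mtf1 from -0.11 to 0.27 at D2 and -0.24 to 0.10 at D10.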
